A study of Homo sapiens with 7 samples.

Results

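The bins described here are 1 kb stretches of the genome that were partly methylated in every wild-type library of a cardiac differentiation. They were chosen by their own measured level. A bin was taken when it held 5 or more CpGs with 10 or more reads in all 7 libraries, and when its level lay between 30% and 70% in all 4 wild-type libraries. The level is the share of methylated reads among all methylated and unmethylated reads of the bin, over its CpGs and both strands. Of 85087 measured bins, 2184 met this rule, and they held 28466 CpGs. The wild-type levels of these bins are therefore a description and not a finding. The levels in the knockout libraries played no part in the choice.

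The libraries are enhanced reduced representation bisulfite sequencing (ERRBS) of the human embryonic stem cell line HUES8, with 1 library per genotype and stage. The wild-type (WT) course has 4 stages: stem cells on day 0 (SC), cardiac mesoderm on day 3 (CME), progenitors of the heart on day 8 (CP) and beating heart muscle cells on day 14 (CM). Cells lacking TET1, TET2 and TET3 (TKO) were sampled at SC, CME and CP, since by the series text they form no beating cells. All differentiating cells received CHIR99021 and then IWP2, an activator and an inhibitor of Wnt signalling. The WT CM library was placed by its title, since its source label reads CME. Whether the TKO cells are 1 clone is not stated, and methylation reads alone check neither the knockout nor the cell types.

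A bin of intermediate level can arise in several ways. At an imprinted region the copy from 1 parent is methylated and the other is not, so every CpG of the region reads near the middle. A border between a methylated and an unmethylated stretch gives the same mean from CpGs that are each high or low. Cells of a culture can also differ from each other, or switch. The TET enzymes oxidise 5-methylcytosine, a step towards its removal. Bisulfite reads 5-methylcytosine and 5-hydroxymethylcytosine alike as methylated.

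Total coverage ran from 120742115 reads over listed cytosines in WT SC to 213058905 in TKO CME. A partly methylated bin had a median of 446 reads in WT SC, the lowest of the 7 libraries, and 793 in TKO SC, the highest. The share of mitochondrial cytosine reads that stayed C, a measure of incomplete conversion, was 1.46% in WT SC and 1.44% in WT CME. It was between 0.139% and 0.387% in the other 5 libraries, and the descriptions of WT SC and WT CME alone carry the suffix BS. With the levels corrected for this share, 725 bins instead of 705 were called higher in TKO at SC and 1247 instead of 1230 at CP, by the test described below. With no replicate library, each test compares the reads of 2 libraries, not 2 conditions. Reads were summed over CpGs, so a molecule with several CpGs enters several times, as do its PCR copies, and the p-values and 95% Wilson intervals cover counting error only and can be too small. Over the bins named below, a level rests on 145 reads or more, and its interval reaches at most 7.96 points from it.

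Sequence upstream of 6 gene starts in these bins is shown because each stands for a course described below. GRB10 and GNAS are imprinted and passed no call, CR1L rose, ZNF582 and ZNF583 fell, and ZNF880 was below WT at SC and CME but above it at CP. Each line holds the 250 bases before the start site, 5′ to 3′ on the gene's strand, with CpGs in capitals. The letters are RefSeq's (GRCh38.p14). Their place on hg19, the build of the measurements, was found by matching the spacing of CpGs to the measured positions.
GRB10: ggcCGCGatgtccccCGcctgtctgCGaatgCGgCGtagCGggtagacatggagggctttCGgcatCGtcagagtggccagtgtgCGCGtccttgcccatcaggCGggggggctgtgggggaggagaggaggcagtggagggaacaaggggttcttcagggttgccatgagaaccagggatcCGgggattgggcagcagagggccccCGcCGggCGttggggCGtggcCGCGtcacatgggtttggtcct
GNAS: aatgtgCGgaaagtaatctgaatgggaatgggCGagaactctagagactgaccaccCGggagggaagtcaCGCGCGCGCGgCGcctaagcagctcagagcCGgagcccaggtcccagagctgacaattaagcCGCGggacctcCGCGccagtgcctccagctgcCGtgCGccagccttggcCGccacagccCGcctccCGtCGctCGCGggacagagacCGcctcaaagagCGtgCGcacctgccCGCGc
CR1L: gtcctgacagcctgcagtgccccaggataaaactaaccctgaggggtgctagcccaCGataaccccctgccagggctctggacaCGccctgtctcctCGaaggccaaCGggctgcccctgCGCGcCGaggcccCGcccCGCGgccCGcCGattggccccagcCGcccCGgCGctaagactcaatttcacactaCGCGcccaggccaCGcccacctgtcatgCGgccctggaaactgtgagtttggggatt
ZNF582: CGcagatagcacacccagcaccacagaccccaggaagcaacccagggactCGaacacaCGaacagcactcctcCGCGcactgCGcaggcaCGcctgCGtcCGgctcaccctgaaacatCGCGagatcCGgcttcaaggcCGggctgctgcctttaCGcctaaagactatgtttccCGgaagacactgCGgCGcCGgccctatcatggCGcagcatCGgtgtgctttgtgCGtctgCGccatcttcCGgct
ZNF583: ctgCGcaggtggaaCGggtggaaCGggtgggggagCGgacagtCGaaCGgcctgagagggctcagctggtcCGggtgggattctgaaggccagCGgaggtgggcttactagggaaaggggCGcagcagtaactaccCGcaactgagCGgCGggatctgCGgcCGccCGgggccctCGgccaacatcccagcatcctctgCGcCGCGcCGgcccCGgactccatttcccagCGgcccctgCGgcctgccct
ZNF880: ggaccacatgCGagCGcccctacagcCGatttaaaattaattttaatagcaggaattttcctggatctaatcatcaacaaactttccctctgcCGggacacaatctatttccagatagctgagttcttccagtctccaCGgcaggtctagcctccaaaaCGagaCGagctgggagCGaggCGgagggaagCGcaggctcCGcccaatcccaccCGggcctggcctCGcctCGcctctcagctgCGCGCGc

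These stretches lie at chr7:50850594-50850843 (GRB10, minus strand), chr20:57416425-57416674 (GNAS, plus strand), chr1:207818228-207818477 (CR1L, plus strand), chr19:56904904-56905153 (ZNF582, minus strand), chr19:56915451-56915700 (ZNF583, plus strand) and chr19:52872926-52873175 (ZNF880, plus strand). In the GNAS stretch, 19 of 27 CpGs were measured in all libraries, with levels of 37.9% to 46.7% in WT SC and 15.7% to 35.5% in TKO SC. In the ZNF583 stretch, 22 of 23 CpGs were measured, with levels of 16.3% to 57.9% in WT SC and 0% to 2.54% in TKO SC. In the ZNF880 stretch, 13 of 17 were measured, with 27.6% to 45.9% in WT SC, 1.33% to 25.4% in TKO SC and 65.8% to 93.4% in TKO CP. The WT and TKO levels of single CpGs did not overlap in the ZNF583 stretch at SC, nor in the GNAS one. In the GNAS stretch they overlapped at the later stages. They were 21.7% to 45.2% in WT CME and 31.7% to 49.4% in TKO CME, and 33.8% to 44.2% in WT CP and 21.7% to 37.0% in TKO CP. Neighbouring CpGs can share reads within a library, and ZNF583 was shown because its bin fell, so these ranges are a description only.

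Most partly methylated bins were more methylated in TKO cells, and a few lost nearly all methylation. From here on, 4 WT levels stand in the order SC, CME, CP, CM, and 3 TKO levels in the order SC, CME, CP. Over the 2184 bins, the WT medians were 54.5%, 57.5%, 46.1% and 48.7%, and the TKO medians 73.5%, 73.5% and 77.8%. The median difference, TKO minus WT, was 16.1, 14.7 and 29.1 points in the same order, beside -0.929, -1.04 and 1.30 points over all 85087 bins.

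A bin was called at a stage when Fisher's exact test (two-sided) gave an adjusted p below 0.01, with Benjamini-Hochberg adjustment over all 85087 bins, and the difference was 25 points or more. In stem cells, 705 of the 2184 bins (32.3%) were called higher in TKO, where 6.26% of all bins were, and 30 were called lower, where 0.119% of all bins were. At CME, 615 (28.2%) were higher beside 6.02% of all bins, and 19 lower beside 0.0846%. At CP, 1230 (56.3%) were higher beside 12.0%, and 8 lower beside 0.0458%. A bin near the middle has room for 25 points in either direction, while a bin near 0% or 100% has room in 1 direction only. The closer comparison is with bins at 30% to 70% in that stage's WT library that failed the rule at another WT stage. Of those, the share called higher was 37.1% of 2383 (SC), 44.2% of 2516 (CME) and 59.5% of 4719 (CP). These shares were above those of the partly methylated bins at each stage, while the share called lower was 0.797% at SC and 0.254% at CP, beside 1.37% and 0.366%.

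Set against all 3 stages, the bins split into 527 that rose (called higher at SC, CME and CP), 8 that fell (called lower at all 3), 876 that stayed (called at none) and 773 mixed bins with another pattern. The shares were 24.1%, 0.366%, 40.1% and 35.4%. Over all bins they were 5.46% for rising, 0.0247% for falling, 87.5% for staying and 7.03% for mixed. "Stayed" means only that no stage passed both limits, so a bin of this class can still differ by up to 25 points, or by more where the reads are few. Of the mixed bins, 501 were called higher at CP alone and 140 at SC and CP, and 1 bin, at the start of ZNF880, was lower at SC and CME and higher at CP.

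The rising bins moved close to full methylation. Their median was 46.3%, 52.4%, 41.5% and 45.0% in WT, against 86.4%, 88.3% and 91.4% in TKO. The staying bins had medians of 57.1%, 58.3%, 52.9% and 53.3% in WT and 59.5%, 58.9% and 61.0% in TKO. The falling bins had medians of 37.6%, 34.9%, 36.5% and 40.4% in WT and 0.635%, 0.927% and 1.03% in TKO. Of all 2184 bins, 599 (27.4%) kept a level of 30% to 70% in all 3 TKO libraries, 1108 (50.7%) were over 70% in all 3, 12 were under 30% and 5 under 5%. Within TKO, 64 bins were called higher at CP than at SC and 4 lower, where 1.08% and 0.0693% of all bins were called.

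**Figure D1:**
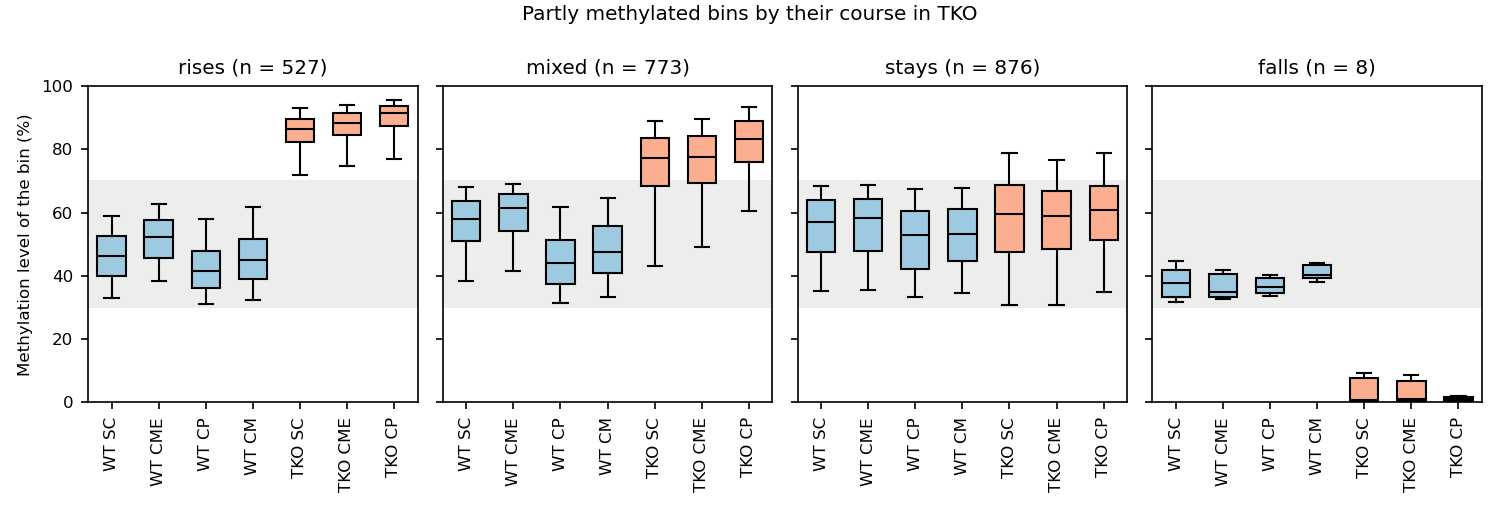
Methylation level of the bin in percent (vertical axis) in the 4 WT and 3 TKO libraries (horizontal axis), in 1 panel for each course in TKO. The grey band marks 30% to 70%. The TKO medians lie at 86.4% to 91.4% for the 527 rising bins, at 58.9% to 61.0% for the 876 staying bins and at 0.635% to 1.03% for the 8 falling bins.

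Bins just inside and just outside the limits of the rule had similar TKO medians. The 230 bins whose nearest WT library lay within 1 point inside a limit had medians of 75.3% in TKO SC and 79.3% in TKO CP. The 265 bins that missed by up to 1 point had 76.9% and 78.3%.

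Most partly methylated bins in imprinted regions stayed. Of 45 imprinted differentially methylated regions (DMRs) on a list, 35 held a measured bin and 14 held a partly methylated one. The 69 measured bins in these regions included 24 members (34.8%), which is 1.10% of all members. The hg19 intervals were written by hand from knowledge of published maps and were not checked against one, so the counts depend on them. Of the 24, 16 stayed, 5 rose, 3 were mixed and none fell. At each stage 7 of the 24 were called higher, and none lower at any. Over all 2184 members, the shares called higher were 32.3% (SC), 28.2% (CME) and 56.3% (CP), beside 6.26%, 6.02% and 12.0% of all bins. The count of 7 was thus near the member share at SC and CME and below it at CP. Of all members, 24.1% rose and 40.1% stayed. The median difference over the 24 was -0.649, 2.92 and 5.28 points by stage. The 16 staying bins belonged to 9 regions, with WT levels of 31.2% to 53.9% and TKO levels of 23.2% to 59.8%.

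GRB10 encodes an adaptor protein that restrains insulin receptor signalling, and its DMR is methylated on the maternal copy. The bin at chr7:50850001-50851000, with 57 CpGs, contains a GRB10 start site. It was at 40.5%, 40.9%, 38.3% and 45.4% in WT and at 38.2%, 31.2% and 36.9% in TKO. All 3 TKO levels lay below the lowest WT level, the one at SC by a small margin. The largest of the 3 differences was at CME, -9.70 points (adjusted p = 1.35e-22 by Fisher's exact test), which is under the 25 points needed for a call.

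KCNQ1OT1 is a long antisense RNA that silences neighbouring genes on the paternal chromosome. Its DMR held 3 adjacent partly methylated bins, at chr11:2720001-2723000. No run of adjacent members was longer than 3 bins, and of the 6 runs of 3, those of KCNQ1OT1, MEST and GNAS NESP lay in listed imprinted regions. Summed over the 3 bins, the level was 36.8%, 39.2%, 38.8% and 47.9% in WT and 34.1%, 32.2% and 37.4% in TKO. SNURF, in the Prader-Willi region, had a bin at chr15:25200001-25201000 at 35.1%, 32.1%, 38.2% and 43.2% in WT and 26.8%, 23.2% and 40.6% in TKO. L3MBTL1, a chromatin-binding protein, had 2 bins with a joint level of 41.2%, 37.5%, 40.6% and 40.7% in WT and 36.8%, 27.8% and 35.9% in TKO. By these joint levels TKO was below WT at SC and CME in all 3 regions, by less than the limit of a call.

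The NESP region of GNAS, the gene of the stimulatory G protein alpha subunit, is methylated on the paternal copy. Its 3 bins at chr20:57414001-57417000 had a joint level of 39.8%, 40.4%, 41.3% and 48.3% in WT and 31.2%, 36.3% and 37.8% in TKO. The third bin held the most even CpGs of all members with 10 or more CpGs. Its stem cell level was 18.2 points lower in TKO (24.5% against 42.7%, adjusted p = 5.85e-23 by Fisher's exact test). TKO minus WT was 3.68 points at CME and -11.9 at CP in this bin. Its WT level itself ran from 34.1% at CME to 51.4% at CM. PEG10, derived from a retrotransposon, had a small bin of 7 CpGs at chr7:94287001-94288000 with 34.5%, 31.4%, 33.0% and 33.5% in WT and 36.9%, 27.8% and 31.9% in TKO. The PEG10 region as a whole was lower. Summed over its 2 measured bins, it was at 16.3%, 15.8%, 8.87% and 11.6% in WT and 4.28%, 7.68% and 11.5% in TKO.

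MEST and INPP5F stayed by the rule but moved late. The joint level of the 3 MEST bins at chr7:130130001-130133000 was 44.3%, 41.8%, 38.3% and 44.9% in WT and 37.4%, 40.4% and 54.7% in TKO. In the middle one, at chr7:130131001-130132000, TKO was below WT by 13 points at SC and above it by 15.3 points at CP. The difference had moved by 28.3 points between the stages, which passed the z test on reads at the same limits. INPP5F, an inositol phosphatase, had a bin at chr10:121578001-121579000 with 37.2%, 34.1%, 36.4% and 37.1% in WT and 32.2%, 35.3% and 59.8% in TKO. Its difference at CP, 23.3 points, fell just short of a call, and it moved by 28.3 points from SC to CP, which passed the z test.

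NNAT and ZDBF2 were the imprinted regions in which all members rose. NNAT encodes neuronatin, a small membrane protein. Its 2 bins at chr20:36148001-36150000 had a joint level of 43.1%, 41.1%, 48.4% and 54.6% in WT and 89.7%, 94.5% and 93.9% in TKO. ZDBF2 encodes a zinc finger protein, and its region is methylated on the paternal copy. Its 3 bins, between chr2:207115001 and chr2:207132000, had a joint level of 40.9%, 47.3%, 45.6% and 46.5% in WT and 89.1%, 88.7% and 91.9% in TKO. The highest adjusted p of these 5 bins over the 3 stages was 2.57e-25 by Fisher's exact test, and no TKO level of the 5 overlapped a WT level. Since rising bins were defined by a call at every stage, both follow in part from that definition. The CpGs of all 5 bins were even in WT, with no CpG under 20% or over 80%.

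The 3 mixed bins were in DIRAS3 (a small GTPase), NDN (necdin, a growth suppressor) and PEG13 (a non-coding RNA). DIRAS3 was at 52.7%, 57.4%, 65.1% and 57.8% in WT and 82.5%, 88.6% and 88.9% in TKO. NDN, with 5 CpGs, was at 42.2%, 51.2%, 39.6% and 45.4% in WT and 69.6%, 64.2% and 83.7% in TKO. PEG13 was at 65.1%, 60.1%, 66.2% and 67.6% in WT and 87.8%, 85.6% and 91.3% in TKO. In all 3 bins every TKO level was above every WT level, but 1 stage or more missed a call.

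MAGEL2, a regulator of ubiquitin ligases in the Prader-Willi region, had a staying bin next to a rising one. The bin in its DMR, chr15:23892001-23893000, was at 40.5%, 37.5%, 38.5% and 45.1% in WT and 37.1%, 43.5% and 40.9% in TKO. Its CpGs became more uneven in TKO, with a standard deviation (SD) between CpGs of 24.5 points against 9.56 in WT. The bin just before it, chr15:23891001-23892000, is a member outside the listed region and was looked at after its values were seen. It was at 54.95%, 55.9%, 43.1% and 51.7% in WT and 90.01%, 93.6% and 92.3% in TKO.

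**Figure D2:**
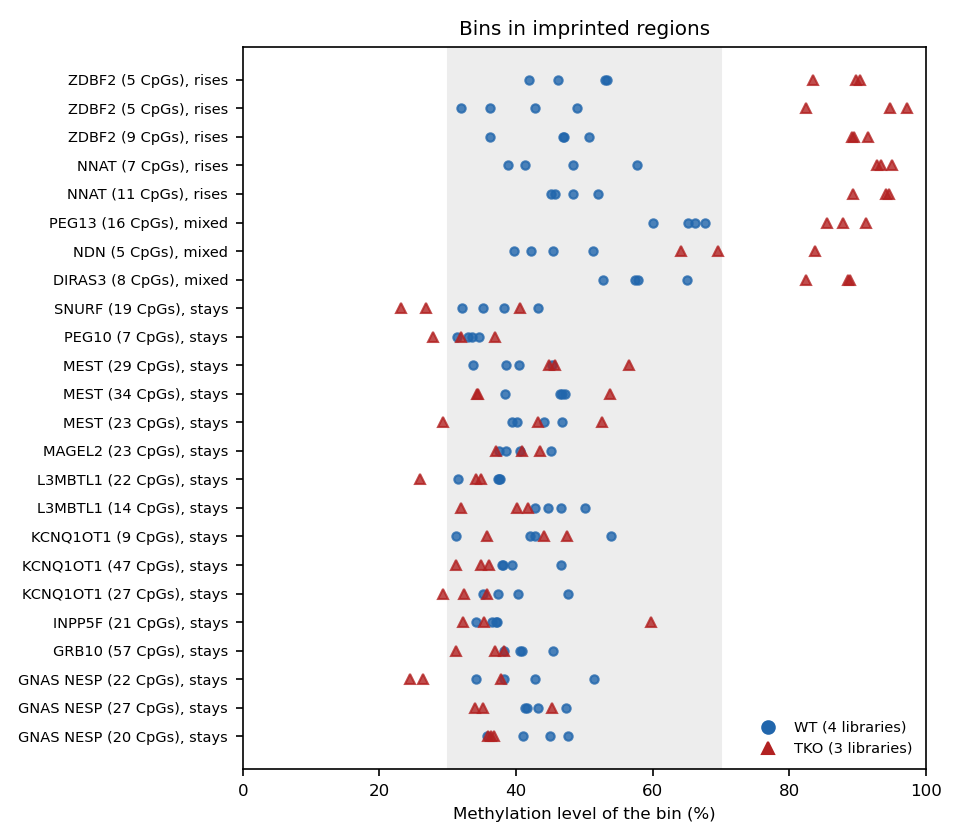
Methylation level in percent (horizontal axis) of each of the 24 partly methylated bins in imprinted regions (vertical axis, with the number of CpGs and the course in TKO), with circles for the 4 WT and triangles for the 3 TKO libraries and a grey band at 30% to 70%. The 16 staying bins have TKO levels of 23.2% to 59.8%, and the 5 rising bins of NNAT and ZDBF2 have TKO levels of 82.4% to 97.2%.

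Other imprinted regions held no member. Of the 21 measured regions without a member, 11 were over 70% in all 4 WT libraries, 4 were under 30% and 6 had another pattern. Among the 6, FAM50B and MCTS2 lay between 30% and 70% in all 4 WT libraries when their bins were summed, but no bin of theirs did so by itself. In stem cells the H19 region, for example, was at 90.6% in WT against 88.5% in TKO, and the IGF2R region at 94.8% against 91.6%. The PLAGL1 region was at 1.77% and 2.41%. In these 3 regions the level in stem cells lay near an end of the scale in either genotype. Other regions without a member differed more between the genotypes. In stem cells the MEG8 region was at 11.7% in WT against 49.3% in TKO, and the GNAS XL region at 27.1% against 46.3%. The ZNF597 region was at 37.8%, 35.3%, 26.2% and 48.9% in WT and 23.3%, 37.0% and 0.887% in TKO. Its TKO level was thus below WT at SC and CP but slightly above WT at CME. These summed levels were not tested.

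The 8 bins that fell were concentrated on chromosome 19. That chromosome held 7 of them, and 8.12% of all measured bins. Of the 7, 5 lay within chr19:56826001-57051000, a stretch with 8 measured bins, of which 6 were members, 5 falling and 1 mixed. Their WT levels ran from 30.7% to 55.1% over all 8 bins. In 5 of the 8 bins all TKO levels were under 2%, and the highest adjusted p over the 8 bins and 3 stages was 3.40e-53 by Fisher's exact test. No TKO level of these bins reached a WT level. Falling bins were defined by a call at every stage, so the low p-values and the separation follow in part from that definition.

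ZNF582 and ZNF583 encode KRAB-type zinc finger proteins and have neighbouring starts. The ZNF582 bin, chr19:56904001-56905000 with 24 CpGs, was at 31.7%, 34.7%, 34.96% and 44.1% in WT and 0.216%, 0.367% and 0.468% in TKO. The ZNF583 bin, chr19:56915001-56916000 with 54 CpGs, was at 30.7%, 32.7%, 35.2% and 40.5% in WT and 0.663%, 0.286% and 0.347% in TKO. These bins contain the start sites whose sequences are printed above. The ZNF583 level in TKO CP rests on 21 methylated of 6053 reads, with a 95% Wilson interval of 0.227% to 0.530%.

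ZSCAN5A, a SCAN-domain zinc finger gene, had 2 partly methylated starts. The bin at chr19:56826001-56827000 was at 33.7%, 32.3%, 37.7% and 38.2% in WT and 0.222%, 0.317% and 0% in TKO. The value at TKO CP was 0 of 2393 reads, with an upper 95% Wilson limit of 0.160%, and 3 reads would make 0.125%. The bin at chr19:56879001-56880000, named after its values were seen, was at 39.1%, 35.8%, 42.3% and 41.2% in WT and 1.56%, 2.05% and 35.9% in TKO. The second start was near 0% in TKO SC and CME and close to WT in TKO CP, while the first stayed near 0% throughout.

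The other falling bins held no placed start site. Only 64.3% of the promoters with enough CpGs were placed, so an unplaced start can lie in or nearer to these bins. Adjacent bins at chr19:52407001-52409000, 102464 bases or more from the nearest placed start (ZNF615), gave 41.1%, 40.4%, 39.0% and 40.3% in WT and 0.607%, 1.36% and 1.93% in TKO for the first. The second was at 44.6%, 41.8%, 33.5% and 43.2% in WT and 0.271%, 0.498% and 1.49% in TKO. Adjacent bins at chr19:57049001-57051000, 27837 bases or more from the nearest placed start (ZNF470), fell less far at first. They were at 7.32% and 9.40% in TKO SC and at 1.5% and 0.574% in TKO CP, against 37.9% and 37.3% in WT SC. The bin off chromosome 19, chr10:135333001-135334000, 45087 bases from a SYCE1 start, was at 50.4%, 55.1%, 46.1% and 45.9% in WT and 20.9%, 24.97% and 6.24% in TKO.

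Some starts were below WT in TKO stem cells and mesoderm and not in TKO progenitors. These bins were chosen after their values were seen. ZNF880, a zinc finger gene, was at 41.3%, 40.0%, 48.3% and 48.8% in WT and 9.15%, 9.43% and 78.6% in TKO at chr19:52873001-52874000. TKO minus WT was thus -32.2 points at SC and 30.4 at CP, a move of 62.6 points that passed the z test. TXNRD2, the mitochondrial thioredoxin reductase, was at 48.3%, 52.3%, 45.2% and 48.7% in WT and 14.0%, 20.7% and 43.6% in TKO at chr22:19929001-19930000. The move of its difference from SC to CP was 32.6 points and passed the z test.

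The largest rises, ranked by the mean difference over the 3 stages, lay outside imprinted regions and held no placed start. The bin at chr14:38679001-38680000 was at 33.2%, 30.7%, 33.8% and 36.3% in WT and 90.7%, 94.9% and 97.1% in TKO. The bin at chr11:280001-281000, with 92 CpGs and 18526 bases from an IFITM5 start, was at 35.2%, 38.3%, 31.4% and 32.0% in WT and 93.9%, 92.7% and 94.2% in TKO. The other 2 were chr19:17566001-17567000, 6524 bases from TMEM221, and chrX:152876001-152877000, 30895 bases from DUSP9, with TKO levels of 87.7% to 94.3%. In none of the 4 did a WT level exceed 41.9%.

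Rising bins with a start site, named after their values were seen, included the following genes. CR1L, a complement receptor-like gene, was at 49.95%, 45.9%, 35.8% and 49.2% in WT and 81.5%, 87.3% and 93.5% in TKO. TAF7L, a germ cell form of a general transcription factor subunit, was at 44.1%, 45.5%, 39.4% and 42.5% in WT and 85.8%, 89.8% and 95.4% in TKO. TCP11, a testis gene, was at 49.6%, 65.5%, 54.0% and 63.2% in WT and 87.3%, 93.0% and 95.05% in TKO. HOXA6, a homeobox gene of body patterning, was at 36.7%, 39.2%, 35.7% and 38.02% in WT and 89.4%, 90.5% and 92.0% in TKO. The bin with the starts of DMGDH and BHMT2, enzymes of betaine and glycine metabolism, was at 50.02%, 58.9%, 38.6% and 45.6% in WT and 91.4%, 90.2% and 93.5% in TKO. In each of these bins every TKO level was above every WT level, which the call at every stage in part imposes.

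REC8, a meiotic cohesin subunit, rose late. It was at 35.9%, 37.97%, 34.2% and 33.4% in WT and 52.1%, 56.9% and 90.5% in TKO, and was called at CP alone. The difference was 16.2 points at SC and 56.2 at CP, a move of 40.1 points that passed the z test.

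Across all members, 333 bins had a difference that was larger at CP than at SC by 25 points or more, where 5.67% of all bins had, and 17 had a smaller one, where 0.108% had. The WT level also moved in many of these: over the 333, the median went from 59.4% in WT SC to 37.8% in WT CP, and from 70.2% in TKO SC to 82.4% in TKO CP. The 333 were chosen by these same 4 levels, which in part imposes such moves. Over all members the medians went from 54.5% to 46.1% in WT and from 73.5% to 77.8% in TKO. Of the 333, 91 had WT CP 25 points or more below WT SC, and 53 had TKO CP 25 points or more above TKO SC. Between CME and SC, 3 members had a larger and 3 a smaller difference, beside 0.0259% and 0.0470% of all bins.

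Staying bins outside imprinted regions included even starts, again named after their values were seen. LLPH, a nucleolar protein gene, was at 39.6%, 39.4%, 45.0% and 44.4% in WT and 41.9%, 36.5% and 46.0% in TKO. SLC9B1, a sodium/proton exchanger of sperm, was at 35.7%, 34.4%, 33.0% and 41.1% in WT and 33.6%, 30.5% and 40.2% in TKO. MED18, a Mediator subunit, was at 45.1%, 42.0%, 47.6% and 44.7% in WT and 38.4%, 38.6% and 45.1% in TKO. ZNF562 was at 39.9%, 41.8%, 37.2% and 41.7% in WT and 35.7%, 29.6% and 41.5% in TKO. The genotype ranges overlapped in all 4 bins, and in these bins no CpG was under 20% or over 80% in WT.

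Of the 4 bins with 10 or more CpGs and the smallest differences, 3 had high coverage. The bin at chr11:85195001-85196000 was at 36.5%, 35.02%, 44.1% and 46.5% in WT and 35.5%, 33.5% and 42.8% in TKO. Its coverage per CpG was 157 times the library median. The bins at chr3:75718001-75719000 and chr9:66457001-66458000, with 9.53 and 4.39 times the median coverage, differed by less than 2.1 points at each stage. Coverage over 5 times the median occurred in 20 of the 2184 bins, and all 20 stayed. The fourth, chr16:90235001-90236000, had 1.24 times the median coverage and was at 67.8% in WT stem cells against 66.1% in TKO stem cells.

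The spread between CpGs within a bin set the members apart from most bins. The SD of CpG levels within a bin, averaged over the 4 WT libraries, had a median of 24.7 points, against 6.12 from read counting alone. Over all bins it was 5.28, against 4.07 from counting. The rule constrains the mean of a bin, and a bin near 0% or 100% has little room for spread, so this contrast follows in part from the choice of bins. By course, the WT median was 18.8 points in rising, 30.1 in staying, 23.0 in mixed and 8.14 in falling bins. In TKO it was 7.00, 28.8, 13.3 and 1.31. Staying bins thus kept about the spread they had, while the spread of rising and falling bins narrowed as their level neared an end of the scale.

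**Figure D3:**
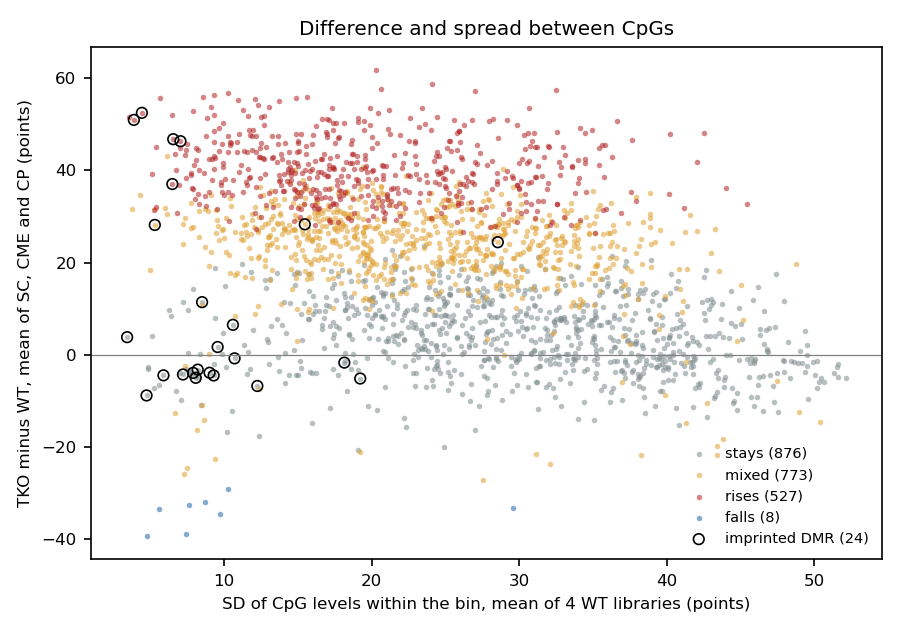
Mean difference TKO minus WT over SC, CME and CP in points (vertical axis) against the SD of CpG levels within the bin in WT in points (horizontal axis), 1 point per partly methylated bin, coloured by course, with black rings around the 24 bins in imprinted regions. Rising bins have a median SD of 18.8 points and staying bins 30.1.

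Sorting each bin by the WT mean level of its CpGs separated even bins from those made of high and low CpGs. Even bins, with no CpG under 20% or over 80%, numbered 546 (25%). Of these, 194 (35.5%) rose, 95 (17.4%) stayed, 251 were mixed and 6 fell. Bins with CpGs both under 20% and over 80% numbered 895 (41.0%). Of these, 150 (16.8%) rose, 476 (53.2%) stayed, 269 were mixed and none fell. In 441 of the 895 bins (49.3%), the level crossed the middle only once along the bin, as at a border. Bins with low CpGs but no high ones numbered 279, with 108 rising and 84 staying, and bins with high ones but no low ones 464, with 75 rising and 221 staying.

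With 10 or more CpGs per bin, some of these shares moved. Of 193 even bins with 10 or more CpGs, 93 rose, 61 were mixed, 33 (17.1%) stayed and 6 fell. Of 165 bins with high CpGs but no low ones, 58 (35.2%) rose and 38 (23.0%) stayed, against 16.2% and 47.6% of the 464. Of 485 bins with both, 122 (25.2%) rose and 187 (38.6%) stayed. Of the 33 even bins that stayed, 10 lay in the listed imprinted regions and 23 did not. The 3 most even were the GNAS NESP bin (SD 4.74 points in WT), the falling bin at chr19:52408001-52409000 (SD 4.74) and chr6:117923001-117924000 (SD 4.87), which was at 37.7%, 43.7%, 41.1% and 42.8% in WT and 42.7%, 31.1% and 40.9% in TKO.

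Among members with 10 or more CpGs, the 3 most uneven bins lay within 1 kb of a placed start. In chr20:57618001-57619000, 100 bases from an SLMO2-ATP5E start, 7 of 13 CpGs were under 20% and 6 over 80% in WT, with an SD of 48.0 points in WT and 48.3 in TKO. In chr7:112032001-112033000, 11 bases from a LOC105375456 start, 6 of 10 CpGs were under 20% and 4 over 80%. In chr11:235001-236000, 931 bases from a SIRT3 start, 5 of 10 were under 20% and 5 over 80%. The first 2 stayed, and the last was called higher at CME. A level sums reads over CpGs, so in such bins it also depends on how the reads are shared between low and high CpGs. In the first bin the stem cell level was 39.2% in WT and 62.1% in TKO. Its low CpGs were at 0% to 5% in WT SC and at 0% in TKO SC. Its high CpGs were at 80% to 99.1% in WT SC and at 89.4% to 100% in TKO SC. With the mean of CpG levels instead, 641 members rather than 705 were called higher at SC.

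**Figure D4:**
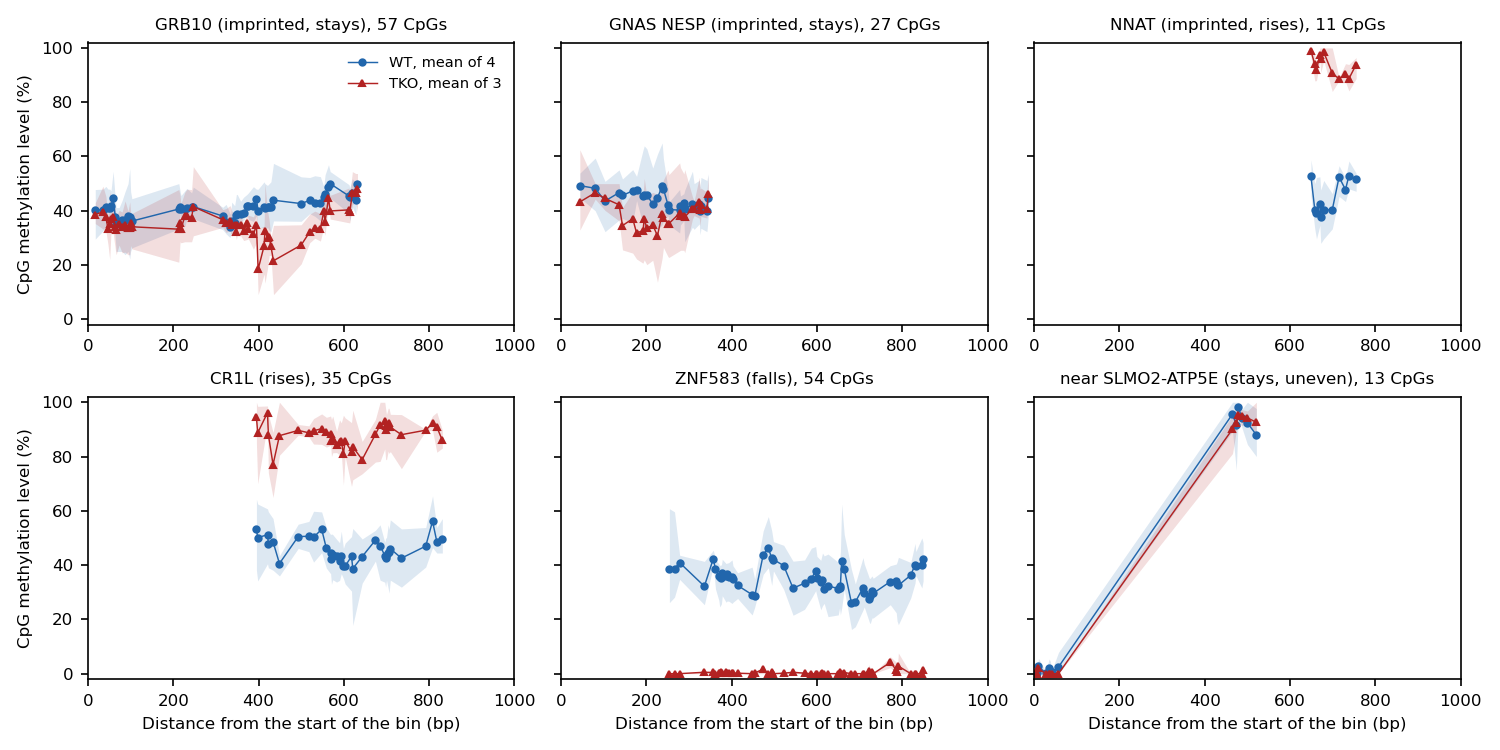
CpG methylation level in percent (vertical axis) against the distance from the start of the bin in bp (horizontal axis) in 6 bins, with circles for the mean of the 4 WT and triangles for the mean of the 3 TKO libraries. The lines join neighbouring measured CpGs. The CpGs of GRB10, GNAS NESP, NNAT, CR1L and ZNF583 lie near the middle in WT, while the bin near SLMO2-ATP5E holds 7 CpGs under 20% and 6 over 80%.

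At single CpGs, the rising and staying bins differed in their low CpGs. Of all 28466 CpGs in members, 14.4% were under 20% in WT, 67.0% between 20% and 80% and 18.6% over 80%, by the mean of the 4 WT libraries. In rising bins, the 1004 low CpGs had medians of 12.5% in WT SC, 7.02% in WT CP and 82.1%, 84.6% and 87.2% in TKO. The 7251 middle CpGs of rising bins had TKO medians of 88.7%, 90.8% and 93.4%. In staying bins, the 1870 low CpGs had a median of 5.13% in WT SC and of 5.06%, 6.00% and 5.00% in TKO. The low CpGs were thus high in TKO where the bin rose and low where it stayed, which the sorting of bins by their mean change in part imposes. The middle CpGs of staying bins had a median of 49.2% in WT and 51.3% in TKO stem cells, and of 44.2% and 55.3% in progenitors. Their high CpGs had 90.7% and 88.0% in stem cells.

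**Figure D5:**
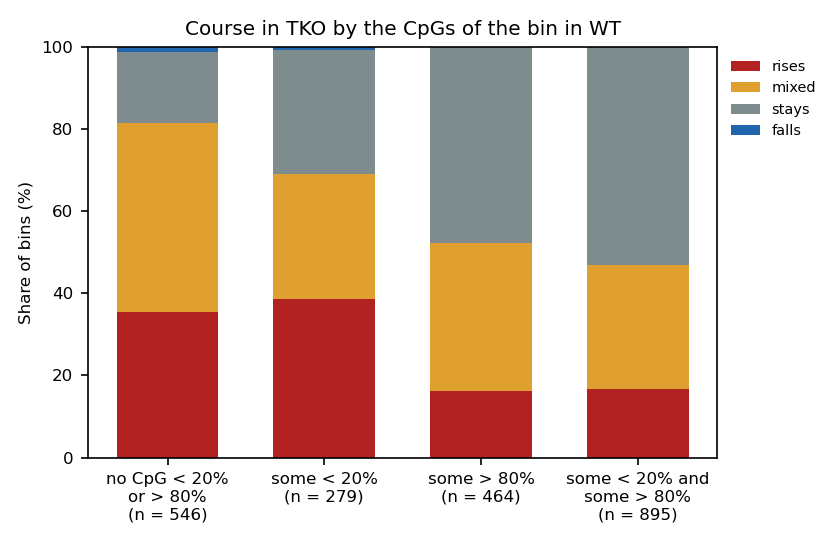
Share of bins in percent (vertical axis) that rose, stayed, were mixed or fell in TKO, stacked for 4 kinds of bin by their CpGs in WT (horizontal axis, with the number of bins). The rising share is 35.5% in the 546 even bins and 16.8% in the 895 bins with both low and high CpGs, and the staying share is 17.4% and 53.2%.

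Partly methylated bins mostly had no partly methylated neighbour, and they held a placed start less often than all bins. Of the 2184, 2004 had no partly methylated neighbour bin, but how many had a measured neighbour was not counted. A placed start site lay in 101 of the 2184 (4.62%), against 12.3% of all bins. The median distance to the nearest placed start was similar, 24569.5 bases for members and 24796 for all bins. Of the 101, 29 rose, 43 stayed, 26 were mixed and 3 fell. Start sites were placed for 64.3% of the promoters with enough CpGs, so other bins may hold a start that was not placed, and exons and introns were not assigned. Chromosome 19 held 257 members, which are 3.72% of its bins and 11.8% of all members, beside 8.12% of all measured bins. The X chromosome held members in 25 of 1607 bins, and the 2 Mb at chromosome ends 392 of 13214. The HOX clusters held 9 members of 224 bins, of which 6 rose, 2 stayed and 1 was mixed. The clustered protocadherins held 2 of 89.

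The letters TGCCGC or their complement GCGGCA, the recognition motif of ZFP57, a zinc finger protein that maintains imprints, were searched on both strands of the 250 bases before each start. They occurred in 15 of 116 promoters in member bins (12.9%), in 23.0% of all 13701 placed promoters and in 12.7% of all 35116 in the table. By course the share was 16.7% of 36 promoters in rising, 14.9% of 47 in staying and 7.41% of 27 in mixed bins, and 0 of 6 in falling bins.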

How the data were processed

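Each of the 7 libraries came as a table of CpG cytosines by strand. Coverage is a read count that the authors did not normalize, and the percent of reads called C and T is given beside it, per the file headers. The lowest coverage was 10. The build was hg19, per the submitters' processing notes. Aligner and caller: not given in the sources used here. Methylated reads were recovered as coverage times percent, and they came out whole in 100% of lines, to within 0.00051% of the coverage. Strands were summed, and 1 kb bins with 5 or more CpGs of 10 or more reads in all 7 libraries were kept. Of 2587280 CpGs seen in any library, 1734462 were shared and not mitochondrial.

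Groups came from the sample titles. Fisher's exact test (two-sided) with Benjamini-Hochberg adjustment was run over 85087 bins for each comparison, and a bin was called at an adjusted p below 0.01 and 25 points. The change of a difference between stages was tested by a z test on reads, added after the data were seen. The calls by Fisher's exact test were checked on simulated data, and the z test was not. The simulated reads were drawn independently at a fixed rate per bin and library. That check could therefore not cover shared molecules, PCR copies or variation between libraries. The members and lists were chosen with earlier results of these data known. Bins were named by rule: the 4 largest rises, the 4 largest falls, the 4 smallest differences with 10 or more CpGs, the 3 most and 3 least even, members in imprinted regions, and every fall. Others are marked as chosen after their values were seen.

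No hg19 annotation was used. RefSeq promoters (GRCh38.p14) with 8 or more CpGs were placed on hg19 by the spacing of CpGs, each at a unique place on its own chromosome. This placed 13701 of 21319 promoters, and 99.9% of neighbour pairs kept their order. Imprinted intervals on hg19 were written by hand from knowledge of published maps and were not checked against one. The work was done in Python 3.11.15 with scipy 1.17.1, numpy 2.4.6, numba 0.67.0, pandas 2.3.3 and matplotlib 3.10.9.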

Additional observations from a re-analysis of the deposited data

Results flagged for a closer look

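The genotype difference changed between SC and CP, by the z test on reads, in 333 members where it became larger and in 17 where it became smaller, with 25 points or more each. Among the bins named above, the change in points (TKO minus WT at CP less the same at SC) was 28.30 in the middle MEST bin, 28.34 at INPP5F, 26.15 at CR1L, 40.05 at REC8, 62.55 at ZNF880, 31.17 at the second ZSCAN5A start and 32.63 at TXNRD2. MEST and INPP5F are imprinted and passed no call at any single stage. Each value compares 4 libraries, 1 per group, so it has no replicate check.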

How the results depend on the processing

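Each of the 8 counts of called members was recomputed under 10 alternatives. Of the 80 values, 40 stayed within 1.5 times of the reported count and 40 did not, and no direction could reverse since counts have none. Counts of higher and lower members are given in the order TKO SC against WT SC, TKO CME against WT CME, TKO CP against WT CP, and TKO CP against TKO SC, where a count moved. With a difference of 15 points, higher members numbered 1136, 1069 and, for CP against SC within TKO, 223, and lower members 76, 53, 17 and 42. With 40 points, higher members numbered 224, 143, 697 and 7, and lower members 4, 2, 0 and 0. With the adjusted p alone, higher members numbered 1426, 1379 and, within TKO, 874, and lower members 179, 153, 54 and 150. With 10 or more CpGs per bin, higher members numbered 423, 383, 640 and 40, and lower members within TKO 2. With members at 35% to 65%, higher members numbered 434, 393, 646 and 36, and lower members 12, 8, 3 and 1. With members at 25% to 75%, higher members in CP numbered 2026, and lower members 14 in CP and 8 within TKO. With the mean of CpG levels, lower members numbered 17 at SC and 2 within TKO. The limits and the CpG minimum change the number of members, and the shares moved too: 43.7% were higher at SC and 66.1% at CP with 10 or more CpGs, and 38.1% and 56.8% at 35% to 65%. The share of members called higher ran from 10.3% to 65.3% at SC and from 31.9% to 76.7% at CP over all alternatives. No paired analysis by replicate was made, since each group has 1 library. A fit of genotype with stage as block was not run. Depth limits single bins: the 95% Wilson interval of a level in a named bin reached up to 7.96 points from it.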
